A study of Mus musculus with 3 samples.

Results

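The comparison described here set lung dendritic cells (lung DC) against peripheral blood monocytes (PBMo), as the deposited log2 ratio of lung DC over PBMo for each spot of a whole-genome array. All 19087 of the 19087 genes that could be named entered, each as the mean of its probes. It is 1 of 3 deposited comparisons, and the others set lung macrophages (lung Mϕ) against PBMo and against lung DC. A positive value means more transcript in lung DC, which follows from the order of the cell types in the label.

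The cells came from naive C57BL/6N mice, 6 to 9 weeks old, with no treatment and no transgene in any group. PBMo had been sorted from blood as cells of low side scatter with CD11b and CD115 on the surface, and lung DC from perfused, collagenase-digested lungs as CD11c-positive cells of low autofluorescence, after an enrichment of CD11c-positive cells on magnetic beads. The macrophages beside them had passed the same beads and were CD11c-positive with high autofluorescence, and the labels call them alveolar although whole lung was digested. Pools of RNA from 4 mice each, 8 per cell type and 32 mice in all, were amplified and hybridized to 12 arrays with 2 dyes, of which 4 carried lung DC against PBMo with the dyes balanced.

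The deposited values hold 1 fitted ratio per spot and no value per array, so no error between pools, no test and no false-discovery rate could be computed, and the number of arrays limits the precision. A gene is called higher or lower here when its log2 ratio was above 1 or below -1, that is, more than 2-fold. The table's rows did not follow the numbering of the array, and the order was recovered from the values, as the 1 of 32 layouts in which probes of the same transcript had like ratios. For 5899 transcripts with more than 1 probe, the share of variance that lay between transcripts was 0.907 in that layout and 0.413 in the next best. Every gene name below depends on it. In bulk RNA, fewer cells of a type and less RNA per cell cannot be told apart.

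Dendritic cells take up antigen, cut it into peptides, load these on MHC class II molecules and carry them to T cells in the draining lymph node. In the lung, conventional dendritic cells of type 1, which carry CD103 and the chemokine receptor XCR1, and of type 2, which carry CD11b and depend on the transcription factor IRF4, differ from plasmacytoid dendritic cells, which specialise in making type I interferon. Blood monocytes are of a classical kind, with Ly6C and the receptor CCR2, and a patrolling kind, with CX3CR1 and Nr4a1.

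Lung DC had far more genes above than below PBMo. In all, 767 genes (4.02%) were higher and 209 (1.09%) were lower, 5.11% past 2-fold in either direction. The median over all genes was 0.00, and the quartiles were -0.11 and 0.12, with 5% below -0.51 and 5% above 0.84. Past 4-fold there were 209 genes higher and 30 lower, past 8-fold 70 and 6, and past 16-fold 18 and 1. The threshold cut through a dense region, since 321 genes lay within 0.1 of it on the log2 scale. Of the 976 genes past 2-fold, 683 had a single probe, as had 10744 of all 19087 genes. The other 293 were among 8343 genes with at least 2 probes, so genes with a single probe were past 2-fold more often. Among the 293, every probe was past 2-fold for 145, and 11 had probes of opposite sign.

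The 20 highest genes mixed functions of dendritic cells with those of lung macrophages and of activated cells. Genes of maturing dendritic cells among them were Zmynd15 (30.1-fold), Apol7c (21.9-fold), Ccr7 (20.5-fold), the receptor that guides dendritic cells to lymph nodes, and Cd83 (18.2-fold), a surface protein that stabilises MHC class II. Mgl2, a lectin for galactose-type sugars, was 24.2-fold higher, and the T cell attracting chemokine Ccl17 was 21.3-fold higher. Fabp1 and Cidec, proteins of fatty acid binding and of lipid droplets, and the receptor Marco were also in this group, at 34.0-, 25.5- and 17.9-fold. These 3 had still larger ratios in lung Mϕ over PBMo, with log2 values of 7.81, 7.22 and 6.19, whereas Ccr7 had 0.45 there. C1qc and C1qa, chains of the complement component that opens the classical pathway, were 16.8- and 15.6-fold higher. The remaining members were Egr2, Rgs1, Mt2, Hspa1a, Cxcl16, Ccl4, Cxcl1, Cyp2s1 and Gm11545, of which Egr2 and Rgs1 are immediate early genes, Mt2 a metallothionein and Hspa1a a heat shock gene.

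The 20 lowest genes were led by products of monocytes, neutrophils, platelets and red cells. F13a1, a subunit of coagulation factor XIII made by classical monocytes and platelets, was 52.1-fold lower and stood alone, since the next, the platelet chemokine Ppbp, was 12.6-fold lower. The hemoglobin genes Hbb-bt, Hba-a1 and Hba-a2 had log2 ratios of -3.28, -2.67 and -2.58, and Alas2, the first enzyme of heme synthesis in red cells, had -2.37. S100a9 and S100a8, calcium-binding proteins of neutrophils and classical monocytes, had -3.11 and -2.88, and the neutrophil granule genes Mmp8 and Camp had -2.88 and -2.49. The myosin light chain Myl9 and Gp9, a platelet glycoprotein, had -2.81 and -2.77. Ly6c2, the Ly6C antigen itself, had -2.58. Fn1, the matrix protein fibronectin, was lower on each of its 12 probes, from -2.75 to -1.52. The others were Rspo1 at -3.15, Slfn4 at -3.04, Cd177 at -2.86, Plac8 at -2.57, Rhou at -2.49 and Hp at -2.46.

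**Figure D1:**
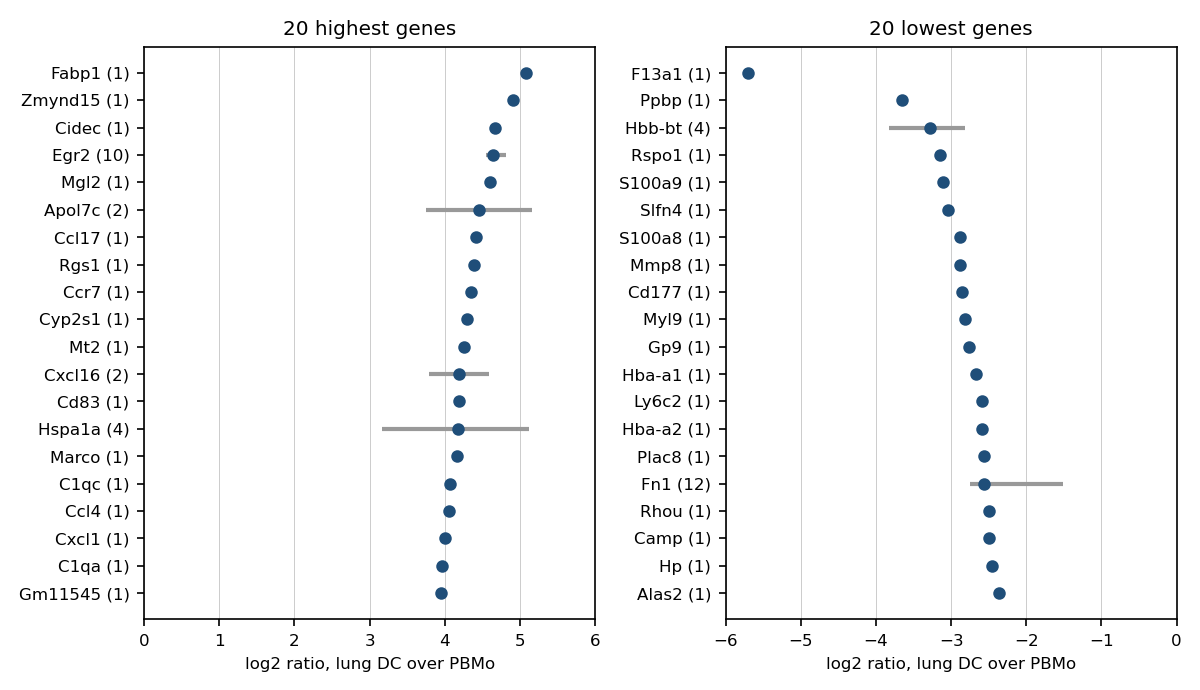
The 20 highest and 20 lowest genes whose probes all had the same sign, as the log2 ratio of lung DC over PBMo (dots), with the number of probes after each name and grey bars from the lowest to the highest probe. The highest genes lie close together between 3.94 and 5.09, whereas F13a1 at -5.70 stands apart from the other low genes.

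Markers were set beside the label, which is not an independent check. The lists were written with earlier results of these data known. The cells had been sorted by the product of Itgax, and the study had already reported Ccr7 and Adam23 as higher in lung DC from these arrays. Of 21 measured genes that conventional dendritic cells share, 10 were higher (47.6%, against 4.02% of all genes) and 0 lower, with a median of 1.00 against 0.00 over all genes. The median was 0.58 when each gene was read from its probe of smallest ratio, and among the 11 genes on no other list it was 0.46, with 4 higher. Besides Ccr7 they included Avpi1 at 2.58, Kit, the receptor of stem cell factor, at 2.09, the transcription factor Mycl at 1.84, Slamf7 at 1.83, and Flt3, the cytokine receptor on which dendritic cells depend, at 1.38. Itgax, the CD11c chain by which the cells had been sorted, had 1.47. Zbtb46, a transcription factor of conventional dendritic cells, had 0.98 and was just short of the threshold. In lung Mϕ over PBMo the same list had 1 gene higher and 6 lower, where 5.47% of all genes were higher and 4.49% lower (9.96% past 2-fold), with Flt3 at -1.02, Zbtb46 at 0.04 and Itgax at 1.71. The PBMo pools are shared by both ratios, so that they are not independent of each other.

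Of the genes of either kind of conventional dendritic cell, some were higher and none was lower, while most lay within 2-fold. For type 1, 10 of 22 were higher (45.5%, against 4.02% of all genes), with a median of 0.94. Among the 9 on no other list 3 were higher, with a median of 0.46. Cd207, the lectin langerin, had 3.10, Itgae, the CD103 chain, 3.07, the endosomal GTPase Rab7b 2.93, the adhesion molecule Cadm1 2.55, Ly75, the uptake receptor DEC-205, 2.03, and Clec9a, a receptor for dead cells, 1.47. The lineage genes themselves were less far apart, with 0.91 for Xcr1, 0.51 for Irf8 and 0.32 for Batf3, none of them past 2-fold. For type 2, 5 of 18 were higher (27.8%), with a median of 0.40, and 1 of the 3 that are on no other list. Beyond Mgl2 and Ccl17 these were Tnip3, an inhibitor of NF-κB signalling, at 1.97, the adhesion molecule Epcam at 1.73, and Rbpj, the nuclear effector of Notch, at 1.32. Cd209a had 0.95, Irf4 0.71 and Sirpa -0.28. Some of these genes are also high in alveolar macrophages, and in lung Mϕ over PBMo Ly75 had 3.76, Epcam 2.71 and Mgl2 2.71, whereas Cadm1 had 0.63 and Clec9a -0.12.

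The genes that dendritic cells switch on when they mature and migrate were the dendritic cell group with the largest share past 2-fold among those examined. Of 33 measured, 22 were higher (66.7%, against 4.02% of all genes) and 0 lower, with a median of 1.71. Among the 14 on no other list 10 were higher, with a median of 1.67. The whole list had a median of -0.06 in lung Mϕ over PBMo, with 8 genes higher and 5 lower. Over all genes 5.47% were higher and 4.49% lower there. The signalling adaptor Traf1 had 3.55 in lung DC and -0.23 in lung Mϕ. Aldh1a2, the enzyme that makes retinoic acid, had 3.32 and 0.84, and the protease inhibitor Serpinb6b 3.25 and -0.68. Fscn1, which bundles actin in the dendrites, had 2.62 and 0.37, and Il4i1, an enzyme that breaks down aromatic amino acids, 2.57 and 0.02. The NF-κB subunit Relb had 1.39 and -0.33, and the chemokine Ccl22 1.78 and 0.57. Not every member set lung DC apart in this way, since Socs2 had 1.88 and 2.13 and Cd200 2.20 and 2.57. The study described its lung DC as mainly immature, from MHC class II, CD80 and CD86 on the surface, whereas these values are transcripts. Lungs but not blood had been digested, so that tissue preparation and cell type cannot be told apart here.

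Plasmacytoid dendritic cell markers were also past 2-fold in part. Of 20 measured, 11 were higher (55%, against 4.02% of all genes) and 1 was lower, with a median of 1.01. Blnk, an adaptor of B cells and plasmacytoid cells, had 3.23, the chemokine receptor Ccr9 2.50, Cox6a2 2.39, Siglech, a surface lectin of these cells, 1.65, and the transcription factor Spib 1.25. Their defining regulator Tcf4 had 0.25, Bst2 -0.34 and Irf7 -1.25. Whether plasmacytoid cells were among the sorted cells was not tested.

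**Figure D2:**
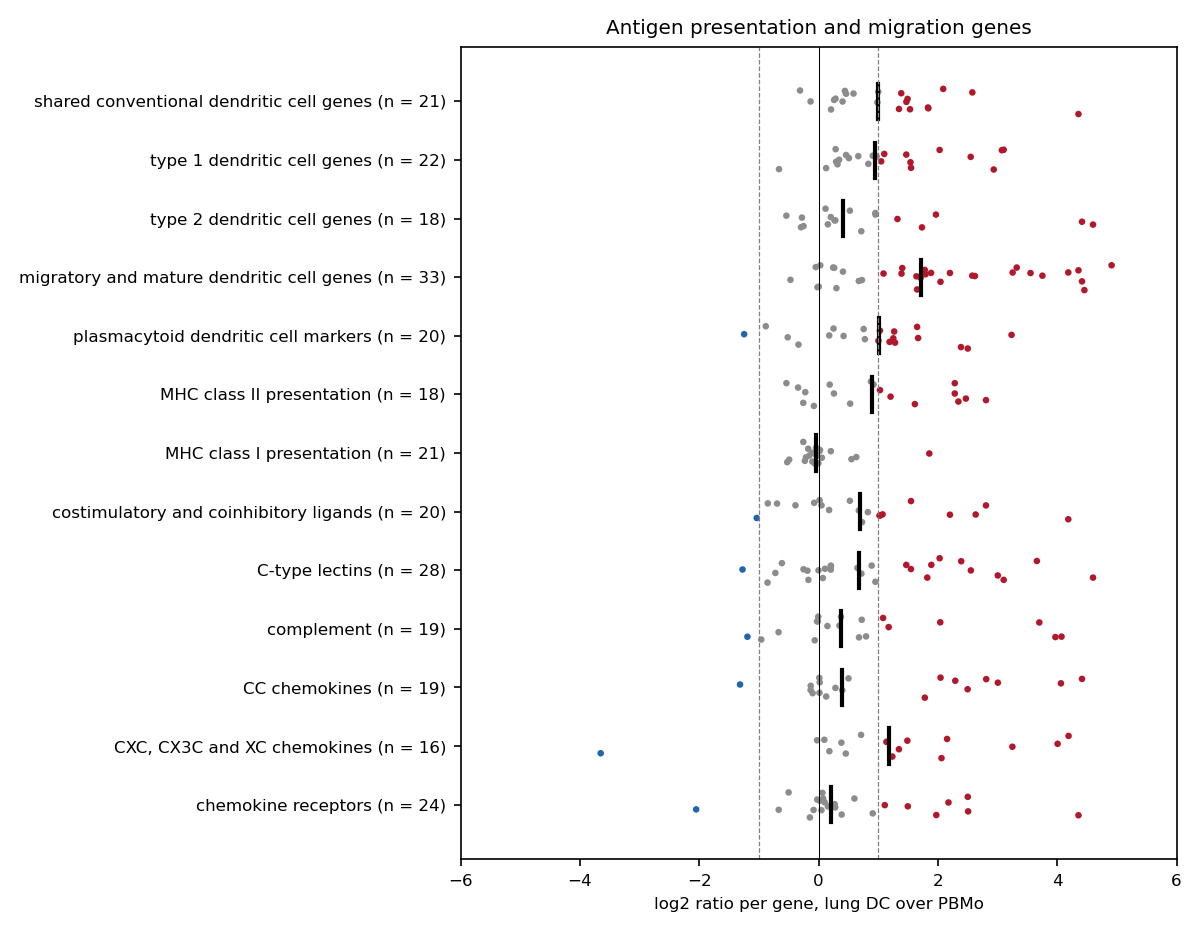
Log2 ratio of lung DC over PBMo for each measured gene (dots) of 13 lists of antigen presentation and migration, with the median of each list (black bar); red dots are above 1 and blue dots below -1, the dashed lines, and dots are spread vertically only to separate them. The list of migratory and mature genes has its median at 1.71, whereas the MHC class I list is centred at -0.04.

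In antigen presentation, class II chains and their loading factors were higher, while class I genes lay within 2-fold except for 1. Of 18 class II genes, 8 were higher (44.4%, against 4.02% of all genes) and 0 lower, with a median of 0.90, and 5 had ratios below 0. The chains H2-Eb1, H2-Aa and H2-Ab1 had 2.80, 2.47 and 2.28, and Cd74, the invariant chain that escorts them, 2.34. H2-Oa, a chain of the modulator of peptide loading, had 2.28, and H2-DMb1 and H2-DMb2, chains of the loading catalyst H2-DM, 1.61 and 1.21. Ciita, the transactivator of class II genes, had 1.03 in lung DC and -1.63 in lung Mϕ. The invariant chain protease Ctss had -0.54. In lung Mϕ over PBMo, H2-Eb1 had 0.37, H2-Aa -0.27, H2-Ab1 -0.20 and Cd74 -0.05. Of 21 class I genes only Cd1d1, which presents lipids, was higher, at 1.85, and none was lower, their median being -0.04 in lung DC and -1.03 in lung Mϕ. The heavy chain H2-K1 had 0.05 and -1.36, and the peptide transporter subunit Tap1 -0.53 and -2.21.

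Because 8 class II genes were past 2-fold on the same side, the 120 bases before the start site of 4 of them are shown. They come from RefSeq on build GRCm38.p6, 5′ to 3′ on the strand of the gene. Capitals mark the letters GATTGG or their reverse complement, the core of the CCAAT box that class II promoters are known for. The 4 genes were taken from the higher genes with a match.
H2-Eb1 (chr17:34305747-34305866, plus strand): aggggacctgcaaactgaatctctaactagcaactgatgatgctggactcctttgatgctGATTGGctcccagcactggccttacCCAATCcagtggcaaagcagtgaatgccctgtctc
H2-Aa (chr17:34287824-34287943, minus strand): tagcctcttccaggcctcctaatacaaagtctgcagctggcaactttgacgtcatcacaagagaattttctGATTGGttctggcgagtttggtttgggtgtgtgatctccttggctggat
H2-Oa (chr17:34092259-34092378, plus strand): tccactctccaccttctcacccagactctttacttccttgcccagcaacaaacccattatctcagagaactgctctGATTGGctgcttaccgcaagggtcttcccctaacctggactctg
H2-DMb1 (chr17:34153071-34153190, plus strand): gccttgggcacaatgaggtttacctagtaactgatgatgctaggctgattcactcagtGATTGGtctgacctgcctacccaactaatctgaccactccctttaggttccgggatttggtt

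These letters were found, on either strand, within 250 bases before the start in 10 of 18 start sites of 14 genes of this list, against 14.6% of 32851 start sites of 27025 genes. In H2-Eb1 they began 60 bases and again 35 bases before the start, in H2-DMb1 62, in H2-Aa 49 and in H2-Oa 44 bases before. They were also present at H2-Eb2, H2-Ob and H2-DMa, whose ratios of 0.19, 0.53 and 0.88 were not past 2-fold, and at Rfx5 and Rfxank, regulators of class II genes, whose ratios were -0.08 and -0.22. Of the 10 genes with a match, 5 were higher and 5 within 2-fold, beside 8 higher among the 18 genes of the whole list. The higher genes H2-Ab1, Cd74 and Ciita had no match or no start site among those searched. The same letters were at 40.6% of the start sites of the heat shock list. A match describes the sequence and does not show that a factor binds there. In all, 12 motifs were searched in 6 lists, and the 3 motifs shown here were chosen after the matches had been seen. Not shown were a longer CCAAT box (CTGATTGG) and a stricter κB motif (GGGANTTTCC), which contain the letters of those shown. A shorter κB motif (GGAANNCC) does not. It was at 15.4% of the start sites of the CXC, CX3C and XC chemokines and 33.3% of those of the NF-κB list, against 15.5% of all. Also not shown were the metal response core (TGCNCNC), the AP-1 motif (TGANTCA) and the cAMP response element (TGACGTCA). The others were a composite motif of PU.1 and IRF (GGAANTGAAA), a serum response motif (CCATATTAGG) and a heat shock motif (GAANNTTCNNGAA).

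Of 20 ligands that stimulate or restrain T cells, 8 were higher (40%, against 4.02% of all genes) and 1 was lower, with a median of 0.70. The median was 0.47 from the probe of smallest ratio, and 0.18 among the 13 genes on no other list, with 4 higher. Beside Cd83, the highest were Cd24a at 2.80, Tnfsf9, the ligand of 4-1BB, at 2.63, and Cd200, an inhibitory ligand, at 2.20. The classical costimulators Cd86 and Cd80 had 1.55 and 1.07, and the inhibitory ligand Cd274 had 1.03. Cd86 set the lung populations apart, with -0.31 in lung Mϕ, and so did Cd40, at 0.67 in lung DC over its 10 probes and -1.50 in lung Mϕ. The lectin ligand Lgals9 was lower, at -1.04.

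Chemokines were more often higher in lung DC than the 4.02% of all genes. Of 19 CC chemokines, 8 were higher (42.1%) and 1 was lower, with a median of 0.40, and of 16 CXC, CX3C and XC chemokines 9 were higher (56.2%) and 1 was lower, with a median of 1.19. Ccl4, which draws monocytes and T cells, had 4.06, its relative Ccl3 was 8.02-fold higher, and Ccl12, Ccl2 and Ccl7, ligands of CCR2, had 2.81, 2.50 and 2.29. Ccl4 had only 0.78 in lung Mϕ over PBMo, whereas Ccl3 had 2.30. Cxcl16, the membrane-bound ligand of CXCR6, had 4.19, and Xcl1, the ligand of XCR1, had 2.15 in lung DC and -0.72 in lung Mϕ. The neutrophil attractants Cxcl1, Cxcl2 and Cxcl3 had 4.00, 3.25 and 1.14, each below its value of 6.01, 5.04 and 3.27 in lung Mϕ. Cx3cl1, the ligand of CX3CR1, rests on probes of 2 transcripts that differed, from 0.22 to 3.90, so its mean of 2.06 is uncertain. Ccl9, at -1.32, and Ppbp were lower.

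The neighbouring genes Cxcl1 and Cxcl2 had among the highest chemokine ratios, and their 120 bases before the start are shown in the same way, with the κB letters GGGA, 2 bases of any kind and TTCC (GGGANNTTCC), a motif that NF-κB dimers are known to bind, in capitals where matches on both strands overlap.
Cxcl1 (chr5:90891125-90891244, plus strand): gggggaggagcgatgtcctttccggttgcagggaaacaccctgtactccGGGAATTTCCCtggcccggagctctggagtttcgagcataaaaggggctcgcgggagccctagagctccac
Cxcl2 (chr5:90903779-90903898, plus strand): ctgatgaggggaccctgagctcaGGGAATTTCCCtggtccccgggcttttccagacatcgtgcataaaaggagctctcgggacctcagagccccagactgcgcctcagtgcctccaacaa

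The letters were found at 4 of 13 start sites of this chemokine list, against 1.21% of all start sites. They were those of Cxcl1, where the match began 71 bases before the start, Cxcl2, at 97 bases, Cxcl3, at 73 bases, and Cxcl10, at 159 bases. All 4 genes were more than 2-fold higher, as were 9 of 16 genes of the whole list and 4.02% of all genes. The same letters were at 13.2% of the start sites of the interferon-stimulated list, where 19 of 38 genes were lower.

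Among 24 chemokine receptors, 7 were higher (29.2%, against 4.02% of all genes) and 1 was lower, with a median of 0.21. After Ccr7 the highest were Ccrl2, which binds chemerin, at 2.51, Ccr9 at 2.50, Cxcr3 at 2.18, Cxcr4 at 1.97 and Cxcr6 at 1.49. Of these only Ccrl2 was also higher in lung Mϕ, at 2.36, while Cxcr3, which many T and NK cells carry, had -1.29 there. Ccr2, which draws classical monocytes out of the marrow and into tissue, was lower in lung DC at -2.05.

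Cytokine genes of the interleukin-1 family were higher for 7 of 14 (50%, against 4.02% of all genes) and lower for none, with a median of 0.84. Il1b had 3.89 over 10 probes, the decoy receptor Il1r2 2.52 and Il1a 2.04. In lung Mϕ Il1b had 2.13, Il1r2 0.33 and Il1a 4.17. Among 32 other interleukins and receptors 4 were higher (12.5%) and none was lower, with Il6 at 2.91 and Il2rb, a receptor chain for IL-2 and IL-15, at 1.70. Of 27 members of the TNF superfamily and its receptors 6 were higher (22.2%) and 1 was lower, with Tnf at 2.76 and the costimulatory receptors Tnfrsf18 and Tnfrsf4 at 2.24 and 1.87, while Tnfrsf21 had -1.19. Csf3r, the receptor of the granulocyte colony-stimulating factor, was lower at -1.50, and of 13 genes of this group only Kit and Flt3 were higher.

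Receptors for uptake and recognition differed in direction. Among 28 C-type lectins 11 were higher (39.3%, against 4.02% of all genes) and 1 was lower, with a median of 0.68. Of the 16 lectins on no other list 5 were higher, with a median of 0.20. The higher lectins included the mannose receptor Mrc1 at 3.66, Clec4n, the receptor dectin-2, at 2.55, and Cd69 at 1.82. Mrc1 and Clec4n were higher still in lung Mϕ, at 6.04 and 4.41. Of 22 Toll-like receptors and adaptors, only Cd14, at 1.71, and Tlr2, at 1.36, were higher and only Ly86 was lower, at -1.13. Sensors of nucleic acids and inflammasome genes had none of 21 higher and 1 lower, Ifih1, the RNA sensor MDA5, at -1.11, and their median was -0.47. Scavenger receptors split, with 7 of 16 higher (43.8%) and 3 lower (18.8%). Of the 9 on no other list, 1 was higher and 3 were lower. Cd163, a receptor for hemoglobin, and Stab1 had 1.70 and 1.60 in lung DC and 0.38 and 0.23 in lung Mϕ, whereas Msr1 had -1.97 and -2.04. Of 19 complement genes 6 were higher (31.6%) and 1 was lower. The C1q chains C1qa, C1qb and C1qc had 3.97, 3.70 and 4.07 in lung DC and 1.40, 0.72 and 1.09 in lung Mϕ, and Hc, the component C5, had 2.04. Cfb, of the alternative pathway, had -1.19, and the Fc receptor Fcgr1 had -1.37.

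Among genes for movement through tissue, those of metallopeptidases and adhesion molecules were past 2-fold more often than all genes, of which 4.02% were higher. Of 24 integrin genes, Itgae and Itgax were higher (8.33%) and Itga2b, a platelet chain, was lower. Of 20 matrix metallopeptidases and inhibitors 6 were higher (30%) and 1 was lower, led by the collagenase Mmp13 at 3.91 and the elastase Mmp12 at 2.42, which had 0.84 and 1.16 in lung Mϕ. Adam8, a sheddase of leukocytes, had 2.23 in lung DC and -0.96 in lung Mϕ. Of 38 cadherins and junction and adhesion molecules 10 were higher (26.3%) and none was lower, with F11r, the junctional molecule JAM-A, at 2.29, Cdh1, E-cadherin, at 1.79 and Icam1 at 1.42. Of 27 cytoskeletal genes 3 were higher (11.1%), Fscn1, Nes at 2.34 and Marcksl1 at 1.65.

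Genes of classical monocytes were lower in lung DC, and most of those of patrolling monocytes lay within 2-fold. Of 27 classical monocyte genes 20 were lower (74.1%, against 1.09% of all genes) and none was higher, with a median of -1.62. Beyond those already named, Ccr2 had -2.05, the matrix glycoprotein Thbs1 -2.01, Lyz2, lysozyme, -1.85, S100a6 -1.62 and the sorting receptor Sorl1 -1.14. Of 24 patrolling monocyte genes 1 was lower (4.17%) and 2 were higher (8.33%, against 4.02% of all genes). The median was -0.36 in lung DC and -1.76 in lung Mϕ, where 16 were lower, against 4.49% of all genes. Cx3cr1 had -0.67 in lung DC and -2.50 in lung Mϕ, the receptor Treml4 -0.28 and -3.51, and Nr4a1 -0.51 and -1.71. Among 22 genes shared by mononuclear phagocytes 5 were higher (22.7%) and 3 lower (13.6%). Mertk, a receptor for dying cells, had 2.65, Adgre1, a surface antigen of mouse macrophages, 0.10 and Itgam, the CD11b chain, -0.67. Lyz1 and Lyz2 had -2.26 and -1.85 in lung DC but 0.06 and -0.07 in lung Mϕ.

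Markers of other cells differed along with this comparison, and their part in the results was not tested. The study had stained sorted cells for surface markers of neutrophils, T, B and NK cells and describes lung DC as free of them, which concerns protein and not the transcripts given here. Over all genes 4.02% were higher and 1.09% lower. Alveolar macrophage markers were higher for 20 of 33 (60.6%) and lower for none. Their range was from -0.33 to 5.09 and their median 1.56, against 3.83 in lung Mϕ over PBMo. Plet1, Krt19, Siglecf and Car4 had 3.94, 3.58, 3.16 and 2.38 in lung DC and 6.17, 5.56, 5.39 and 4.25 in lung Mϕ. Others were hardly apart in lung DC, with 0.85 for Chil3, 0.42 for Chil4 and 0.01 for Ccl6, which had 3.83, 3.66 and 2.79 in lung Mϕ. NK cell markers were higher for 13 of 28 (46.4%) and lower for none. They ranged from -0.39 to 2.15 with a median of 0.94, against -1.82 in lung Mϕ. The killer receptor chain Klrd1 had 1.90, Tbx21 1.66, Gzmb 1.24 and Ncr1 0.49. T cell markers were higher for 13 of 25 (52%) and lower for none. They ranged from -0.03 to 4.35 with a median of 1.10, or 0.61 from the probe of smallest ratio. The list includes Ccr7 and Cd8a, which dendritic cells also carry. The T cell receptor chains Cd3d, Cd3g and Cd3e had 1.88, 1.58 and 0.26, the coreceptor chain Cd8b1 3.51 and Cd4 0.16.

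B cell markers were higher for 3 of 21 (14.3%, against 4.02% of all genes), Cd72, Fcrla and Spib, with a median of -0.13. Cd79a and Ms4a1 had -0.13 and -0.76. Markers of lung epithelium were higher for 7 of 22 (31.8%) and lower for 1, from -1.59 to 3.65 with a median of 0.31. The surfactant gene Sftpc had 3.65 and the club cell gene Scgb1a1 2.37, beside 3.16 and 2.17 in lung Mϕ. Markers of endothelium and fibroblasts were higher for 8 of 24 (33.3%) and lower for none, from -0.46 to 3.46. Their median was 0.57, or 0.09 from the probe of smallest ratio, and the list was led by Mgp at 3.46, Inmt at 3.18 and Cldn5 at 2.40. On the monocyte side, neutrophil markers were lower for 11 of 21 (52.4%, against 1.09% of all genes) and higher for none. They ranged from -3.11 to 0.00 with a median of -1.07, or -0.62 over the genes on no other list. Some are shared with classical monocytes, but the granule genes Camp, Ngp and Ltf, at -2.49, -1.91 and -1.84, are not on the monocyte list. Platelet markers were lower for 9 of 20 (45%) and higher for 1, from -3.65 to 1.16 with a median of -0.84. Pf4, a defining platelet chemokine, had 0.18. Red cell markers were lower for 4 of 9 (44.4%) and higher for 1, with a median of 0.00. Of 16 mast cell and basophil markers, Kit alone was higher (6.25%). Without all genes on these lists of other cells, 701 of 18870 genes were higher and 184 lower. That step removed only the listed genes, so it cannot show how much other cells contributed, which was not tested.

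**Figure D3:**
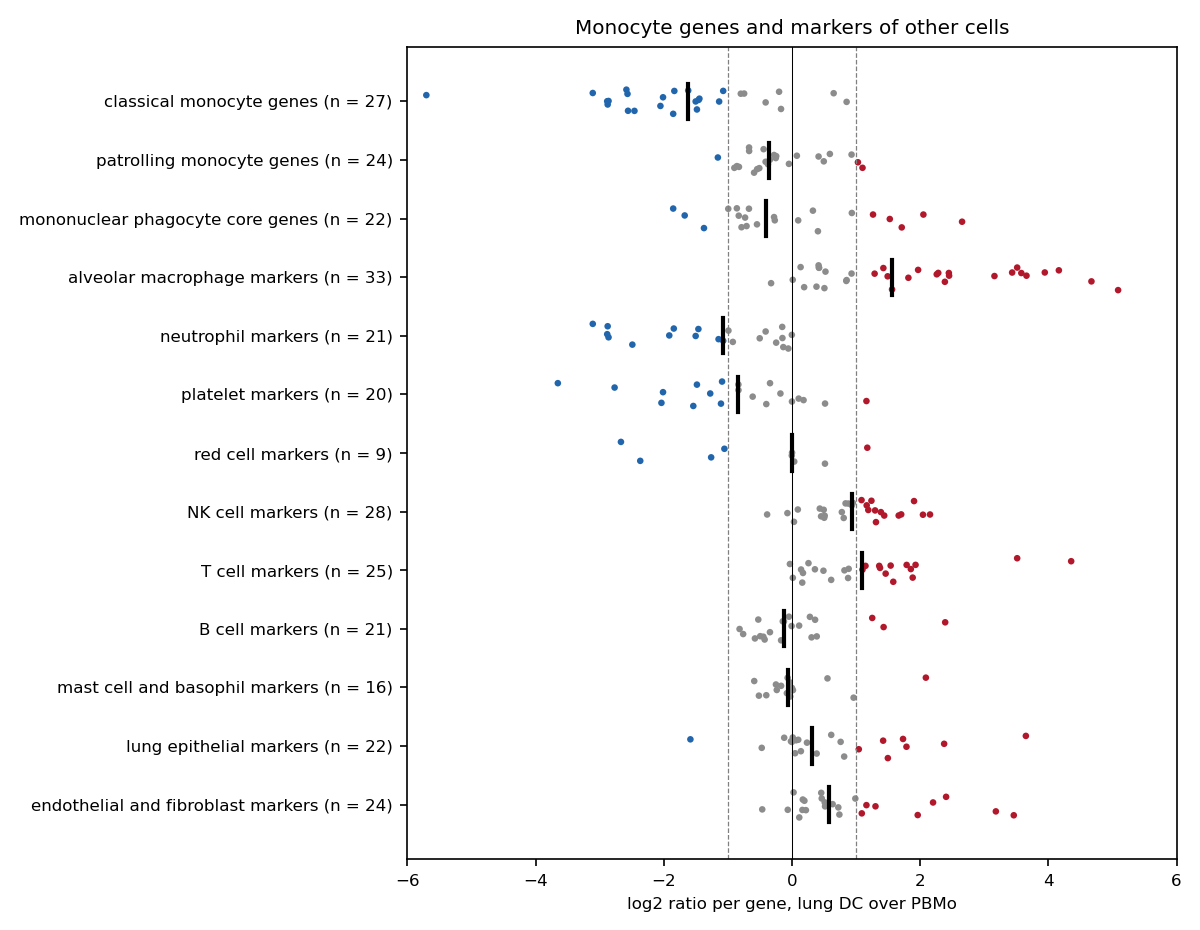
Log2 ratio of lung DC over PBMo for each measured gene (dots) of the monocyte and phagocyte lists and of 10 marker lists of other cells, with the median of each list (black bar), red dots above 1 and blue dots below -1. Classical monocyte, neutrophil and platelet genes lie mostly to the left, and alveolar macrophage, NK cell and T cell markers mostly to the right.

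Part of each group of inducible genes was higher in lung DC, against 4.02% of all genes. Of 42 immediate early genes 20 were higher (47.6%) and 1 was lower, with a median of 0.95. Egr2 had 4.64 over 10 probes from 4.55 to 4.81, Rgs1, a brake on chemokine receptor signalling, 4.39, Maff 3.88, Gadd45b 3.75, Fosb 2.93 and Jun 2.33. The members did not move as a block, since Fos had -0.52 over 11 probes, Dusp1 0.11, Zfp36 0.56 and Sik1 -1.12. Of 30 heat shock and chaperone genes 5 were higher (16.7%) and 0 lower, with a median of 0.43. Hspa1a had 4.18 over 4 probes from 3.16 to 5.12, Hspb1 1.76, Hsp90aa1 1.17 and Hspa8 0.29. Of 30 genes of the NF-κB pathway and its feedback 13 were higher (43.3%) and 1 was lower, with a median of 0.63, among them Traf1, Cish, an inhibitor of cytokine signalling, at 3.10, Tnfaip3, the brake A20, at 3.05, and Nfkbia at 1.85. The lungs, not the blood, had been digested with collagenase at 37 °C, so that tissue preparation and cell type cannot be told apart in these groups. In lung Mϕ, prepared in the same way, the median was 0.47 for the immediate early, 0.36 for the heat shock and -0.09 for the NF-κB genes.

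Interferon-stimulated genes were more often lower than all genes were. Of 38 measured, 19 were lower (50%, against 1.09% of all genes) and 2 were higher, with a median of -1.02, and the median was -2.33 in lung Mϕ over PBMo. The membrane protein gene Ifi27l2a had -2.04, Ifitm6 -1.97, Ifi204, a sensor of DNA, -1.80, Xaf1 -1.56, the antiviral Ifit2 -1.50 and Mx2 -1.47. For the same genes lung Mϕ had -4.53, -5.45, -3.33, -3.12, -2.30 and -3.63, in each case further from PBMo. The exceptions were the chemokines Cxcl10 and Cxcl9 at 1.49 and 1.24. Irf7, which amplifies the interferon response, had -1.25. The 120 bases before the start of 3 of the lower genes are shown, with the interferon response letters GAAA, 2 bases of any kind and GAAA (GAAANNGAAA), on either strand, in capitals, where matches may overlap.
Isg15 (chr4:156200819-156200938, minus strand): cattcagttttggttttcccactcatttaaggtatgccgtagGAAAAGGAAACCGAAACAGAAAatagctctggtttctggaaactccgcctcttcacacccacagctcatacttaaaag
Gbp3 (chr3:142559924-142560043, plus strand): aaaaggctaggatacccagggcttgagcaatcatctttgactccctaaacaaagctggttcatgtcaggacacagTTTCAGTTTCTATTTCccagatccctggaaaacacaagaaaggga
Igtp (chr11:58199436-58199555, plus strand): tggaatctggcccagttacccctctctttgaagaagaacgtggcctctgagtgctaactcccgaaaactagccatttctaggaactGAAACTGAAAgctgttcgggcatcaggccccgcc

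The letters were found at 17 of 38 start sites of 31 genes of this list, against 2.98% of all start sites. The first match began 78 bases before the start in Isg15, at -1.13, 45 bases before in Gbp3, at -1.43, and 34 bases before in Igtp, at -1.38. Of the 17 genes with a match, 7 were lower, beside 19 of 38 in the whole list and 1.09% of all genes. Another 9 lay within 2-fold, such as Bst2 at -0.34 and Ifi205 at -0.44. Cxcl10, with a match 213 bases before its start, was higher.

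Of 41 cell cycle and replication genes 20 were higher in lung DC (48.8%, against 4.02% of all genes) and 0 lower, and 21 lay within 2-fold. In lung Mϕ over PBMo 20 were higher and 1 was lower, where 5.47% of all genes were higher, and the medians were 0.92 and 0.94. Birc5, of the chromosomal passenger complex, had 2.58, Mki67, the proliferation antigen, 2.54, the tubulin regulator Stmn1 2.53 and the helicase subunit Mcm6 2.02. Ccnd1, cyclin D1, differed more between the populations, at 2.34 in lung DC and 0.18 in lung Mϕ.

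Among metabolic genes, against 4.02% of all genes higher and 1.09% lower, the groups differed. Of 24 genes of fatty acid binding and lipid droplets 9 were higher (37.5%) and 1 was lower, with a median of 0.45, against 1.30 in lung Mϕ. Angptl4, a lipase inhibitor, had 3.58 and the lipid droplet protein Hilpda 3.13, and Pparg, the lipid-sensing nuclear receptor, had 0.93. Ch25h, which makes 25-hydroxycholesterol, had 3.78 among 19 cholesterol genes with 3 higher and 1 lower. The metallothioneins Mt2 and Mt1 had 4.26 and 2.48, and of 30 antioxidant, iron and heme genes 7 were higher (23.3%) and 2 lower. Of 25 glycolysis genes 2 were higher (8%) and 2 lower, with Aldoc at 1.52 and Ldhb at -2.06. Of 33 cathepsins and lysosomal genes 7 were higher (21.2%) and 2 lower, with Ctsk at 2.28. Ltc4s and Alox5, enzymes of leukotriene synthesis, had 2.51 and 1.28, and Ptgs2, an inducible cyclooxygenase, had 2.20. Procr, the protein C receptor, had 3.56, and of 25 coagulation and matrix genes 5 were higher and 5 lower. Further lists had only a few members past 2-fold, but each had a share higher that was above the 4.02% of all genes. Over all genes 1.09% were lower. Of 23 eicosanoid genes 3 were higher (13%) and 2 lower, of 23 Siglecs and inhibitory receptors 3 were higher (13%), of 30 genes of TGF-β, growth factors and Notch 6 were higher (20%), of 21 ADAM and ADAMTS peptidases 3 were higher (14.3%), and of 13 Fc receptors 2 were higher (15.4%) and 1 was lower. Among the growth factors Igf1 had 2.11 and Pdgfa 1.70.

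None of 29 ribosomal protein genes and none of 12 reference genes was past 2-fold, with medians of -0.01 and -0.15, and Actb had -0.02, Hprt -0.14 and Gapdh -0.32.

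**Figure D4:**
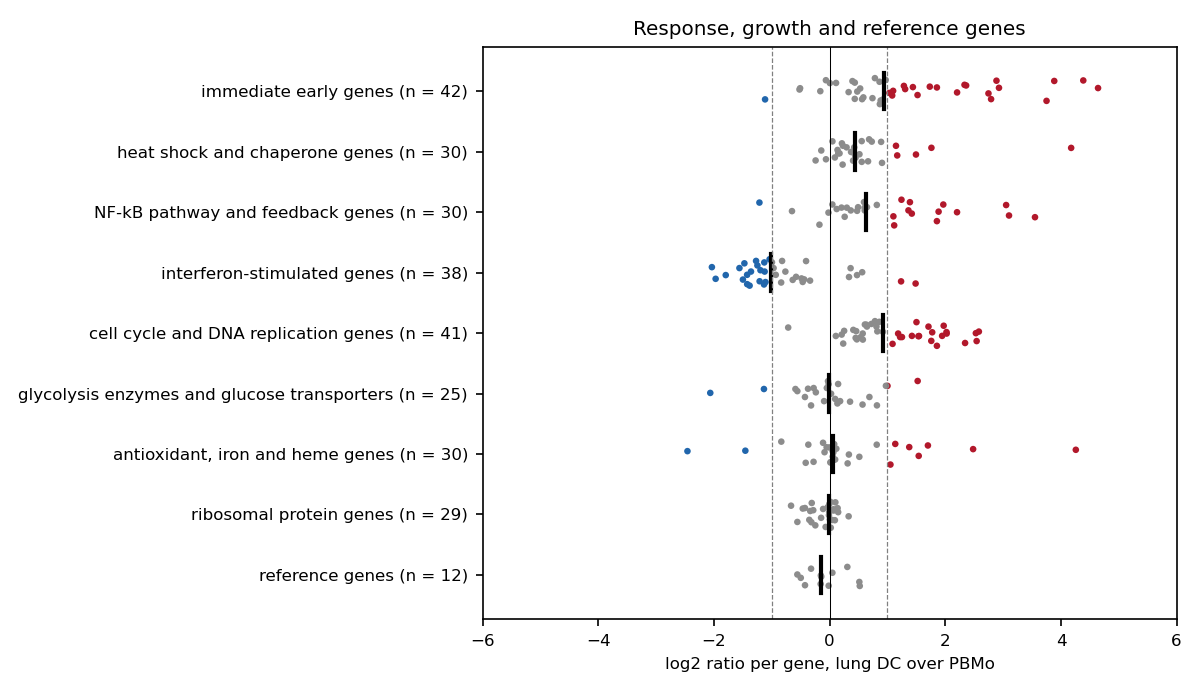
Log2 ratio of lung DC over PBMo for each measured gene (dots) of 9 lists of inducible, proliferation, metabolic and reference genes, with the median of each list (black bar), red dots above 1 and blue dots below -1. Interferon-stimulated genes are centred at -1.02 and cell cycle genes at 0.92, while ribosomal protein and reference genes stay within the dashed lines at -1 and 1.

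Of 29 transcription factors of dendritic cells and their regulators 6 were higher (20.7%, against 4.02% of all genes) and 0 lower, with a median of 0.51. In lung Mϕ 1 was higher and 8 were lower, with a median of -0.55. Over all genes 5.47% were higher and 4.49% lower there. Besides Mycl, Relb and Spib, Nr4a3 had 1.31 and Etv3 1.20, and Id2, which type 1 dendritic cells need, had 0.83 in lung DC and -0.81 in lung Mϕ. Irf8 likewise had 0.51 and -1.20. Of 27 factors of monocytes and macrophages, Egr2 and Bhlhe40, the latter at 2.57, were higher (7.41%). Irf7 and Nfe2, the latter at -1.88, were lower (7.41%, against 1.09% of all genes), and the median was 0.09. Spi1, the myeloid factor PU.1, had -0.71 and Cebpb -0.86.

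**Figure D5:**
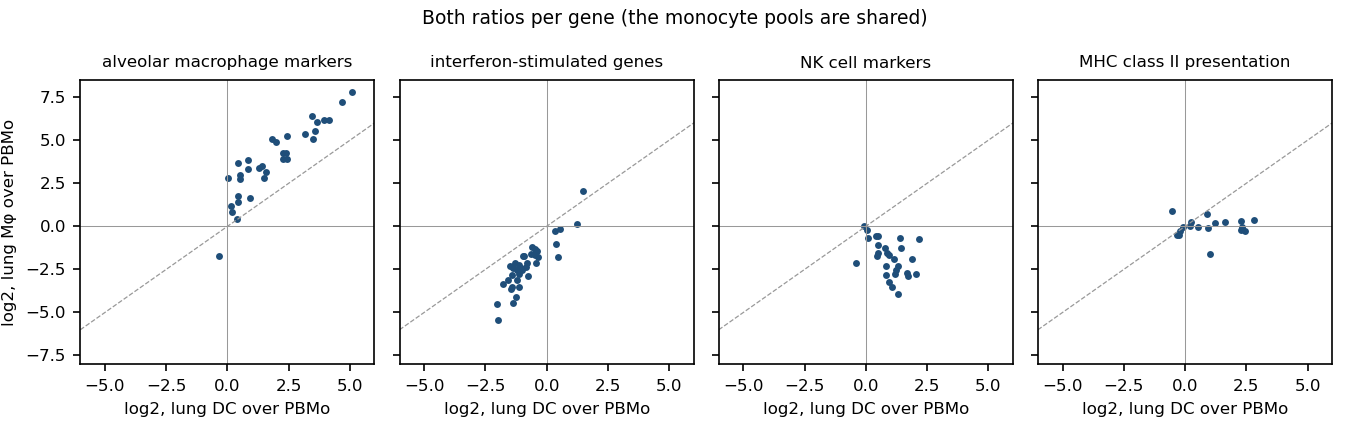
Log2 ratio of lung DC over PBMo (horizontal) and of lung Mϕ over PBMo (vertical) for each measured gene (dots) of 4 lists, with lines at 0 and a dashed line where both are equal; the PBMo pools are part of both ratios. NK cell markers lie to the right and low, with medians of 0.94 and -1.82, and MHC class II genes extend to the right near 0 in lung Mϕ, with medians of 0.90 and -0.02.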

How the data were processed

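The arrays measured amplified RNA of pools of PBMo, lung Mϕ and lung DC. According to the authors' methods, the spots were scanned with GenePix, corrected for local background with an offset, normalized by LOESS within arrays and fitted in 1 model with limma (version not given in the sources used here). The authors deposited 1 log2 ratio per spot and comparison, used here as deposited, with no values per array. In every spot the 3 ratios close (largest deviation 1.07e-14), so a refit leaves no residual. The layout of the 45220 spots was found from their values, and the one chosen on 2949 transcripts gave a share of 0.903 on 2950 left out. On simulated data, with probes of a gene nearly alike and the true layout always among those tried, 32 of 32 layouts were recovered. That cannot show that the real order is among the 32. Of 33709 listed probes 33653 had 1 gene symbol and 56 had several and were left out, and 11511 spots were unnamed. Where a transcript had 8 or more probes (217 transcripts), these differed by a median SD of 0.0500, a spread of spots and not of mice. Whether such probes differ in sequence or repeat the same one was not checked, so their number is not independent support. Genes not on the annotation were not analysed here.

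The comparison, the 57 gene lists (1159 of 1258 genes measured) and the thresholds were chosen with earlier results of these data known. Genes named are the 20 highest and 20 lowest with probes of the same sign, members of the lists, the 10 with the largest difference between probes and the 10 furthest apart in opposite directions from lung Mϕ. Promoters came from RefSeq, build GRCm38.p6. Python 3.11.15, numpy 2.4.6, pandas 2.3.3 and matplotlib 3.10.9 were used.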

Additional observations from a re-analysis of the deposited data

Results flagged for a closer look

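The genes furthest past 2-fold in opposite directions in the lung populations, both over PBMo, were drawn to notice because they were higher in lung DC and lower in lung Mϕ. The difference was not tested, since replicate values were not analysed here and the PBMo pools are shared. The largest gap was that of Klra7, a receptor of NK cells, with log2 ratios of 1.30 in lung DC and -3.95 in lung Mϕ. Ccl5, a chemokine of NK and T cells and of mature dendritic cells, had 2.04 and -2.75. Cd8b1, the chain that sets the CD8 coreceptor of T cells apart from that of dendritic cells, had 3.51 and -1.24.

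The cytotoxic granule genes Gzma and Nkg7 had 1.08 and -3.50, and 1.19 and -2.76. Il2rb had 1.70 and -2.86 and the transcription factor Tbx21 1.66 and -2.72. The NK cell receptor genes Klra23 and Klrd1 had 1.02 and -3.31, and 1.90 and -1.90. Ifng, the gene of interferon gamma, had 2.45 over 11 probes, from 2.31 to 3.06, and -1.49 in lung Mϕ. Of these 10 genes, 7 are on the NK cell list, which holds 28 of the 19087 genes. The 10 were picked for their opposite ratios, and that list had 13 genes higher in lung DC and 21 lower in lung Mϕ. The overlap is therefore not a further result. The Klra genes form a family of related genes, and whether the probes tell its members apart was not tested.

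Of the 11511 spots that the annotation did not name, 183 were more than 2-fold higher and 46 more than 2-fold lower in lung DC, from -2.83 to 4.45. That is 1.99% of those spots, against 5.39% of the probes with 1 gene.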

How the results depend on the processing

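No paired analysis was possible because the deposited values hold 1 fitted ratio per spot and comparison. For the same reason no pool or array could be left out. Of 19087 genes, 767 were higher and 209 lower. With each of 33653 probes counted on its own, 1447 were higher and 366 lower. At 1.5-fold the counts were 1501 and 725, and at 4-fold 209 and 30. With only the 8343 genes that have at least 2 probes, 229 were higher and 64 lower. With the probe of the largest ratio in place of the mean, 1031 were higher and 291 lower, and with the smallest 645 and 183. Centring the column on its median gave 771 and 207.

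Of 114 counts over the lists, 47 moved by more than 1.5 times at 1.5-fold, 10 with the smallest probe, 49 without genes shared with another list and 0 with centring. Of 57 list medians, 35 moved by more than the median SD between probes with the smallest probe, 33 without shared genes and 0 with centring. Probes of a gene can disagree. Those of Akap2 ran from 0.26 to 4.03, of Crem from -0.16 to 3.25, of Col14a1 from 0.00 to 3.61, of Strip2 from 0.21 to 3.79, of Cav1 from 0.29 to 3.62, of Mgll from 0.01 to 3.29, of Cacna1s from -0.19 to 3.04, of Il1rl2 from 0.14 to 3.36 and of Pde4dip from -0.06 to 3.12. Signal over background was not analysed here.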

Other observations

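Families defined by a shared start of the gene symbol were counted, and those named here chosen, after the values had been seen. Over all genes 4.02% were higher and 1.09% lower. Of 10 genes named Mcm, subunits and partners of the helicase that opens DNA for replication, 6 were higher and 0 lower in lung DC, and the median log2 ratio was 1.23. Of 9 Slfn genes, which interferon induces in many cells, 3 were lower and none was higher, with a median of -0.91. Of 6 Ifit genes 5 were lower, with a median of -1.24, and of 10 Oas genes 3 were lower, with a median of -0.57. Of 25 claudin genes 3 were higher and 0 lower, with a median of 0.03.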
